A study of Mus musculus with 34 samples.

Results

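The genes described here are 9 genes that mark epithelial and mesenchymal cell states: the adhesion genes Cdh1, Cdh2 and Epcam, the transcription factors Snai1, Snai2, Zeb1 and Zeb2, and the structural genes Vim and Fn1. They were listed by name as markers of the epithelial-mesenchymal transition (EMT), and all 9 were found among the 53655 genes of the deposited count tables. All 9 also passed the filter on low counts (at least 10 counts in at least 3 libraries). The study measured RNA in epiblast stem cells (EpiSC), cultured pluripotent cells that resemble the epiblast of the implanted embryo, and in definitive endoderm (DE) derived from them. There were 17 libraries of each cell type, each from a separate cell line of an inbred mouse strain, and 16 lines gave both. In EpiSC the strains were C57BL/6J (5 lines), PWK/PhJ (3), CAST/EiJ (2), NOD/ShiLtJ (2), NZO/HiLtJ (2), WSB/EiJ (2) and DBA/2J (1). In DE they were C57BL/6J (5), PWK/PhJ (4), NOD/ShiLtJ (2), NZO/HiLtJ (2), WSB/EiJ (2), CAST/EiJ (1) and DBA/2J (1). The EpiSC were kept in N2B27 on irradiated mouse embryonic fibroblasts (MEFs), a feeder layer, with hsFGF at 12.5 ng/mL, Activin A at 20 ng/mL and the tankyrase inhibitor NVP-TNKS6561 at 175 nM. For DE the cells were moved to laminin, treated for 16 h with the GSK3 inhibitor CHIR (3 uM) and Activin A (40 ng/mL), and then for 24 h with Activin A (100 ng/mL) and the BMP receptor inhibitor LDN-193189 (100 nM). The DE libraries were made from cells taken by a magnetic sort for CXCR4, whereas no sort is described for EpiSC, whose RNA can therefore include feeder RNA. EpiSC RNA went through a stranded polyA kit and DE RNA through a low-input amplification kit, so that kit and cell type cannot be told apart in any comparison below.

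In an epithelium, E-cadherin (encoded by Cdh1) and EpCAM hold neighbouring cells together, and catenins tie E-cadherin to the actin cytoskeleton. In EMT the transcription factors of the Snail and Zeb families bind E-box motifs and repress epithelial genes such as Cdh1, while mesenchymal genes such as N-cadherin (Cdh2), vimentin (Vim) and fibronectin (Fn1) are expressed at higher levels. The process is known in the embryo from gastrulation, when epiblast cells leave through the primitive streak to form mesoderm and endoderm, and fibroblasts, including feeder cells, express Vim, Fn1, Zeb and Snail genes as mesenchymal cells.

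Promoter sequences from RefSeq (GRCm38.p6, the assembly called mm10 in the submitters' processing notes) were matched for 4 of the 9 genes: Epcam, Snai1, Vim and Zeb2. They are shown for the 2 genes whose promoter holds the E-box bound by Snail and Zeb factors, an epithelial gene and a Snail gene. Each run gives the 250 bases before the annotated start, 5′ to 3′ on the gene's strand, with the E-box (CAGGTG or its reverse complement CACCTG) in capitals. Epcam is on the plus strand at chr17:87635729-87635978, and Snai1 on the plus strand at chr2:167537945-167538194.
Epcam: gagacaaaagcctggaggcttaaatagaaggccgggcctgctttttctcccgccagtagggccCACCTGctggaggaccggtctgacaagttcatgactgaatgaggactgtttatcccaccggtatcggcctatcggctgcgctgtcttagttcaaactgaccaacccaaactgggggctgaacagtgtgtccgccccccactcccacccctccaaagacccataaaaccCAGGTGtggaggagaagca
Snai1: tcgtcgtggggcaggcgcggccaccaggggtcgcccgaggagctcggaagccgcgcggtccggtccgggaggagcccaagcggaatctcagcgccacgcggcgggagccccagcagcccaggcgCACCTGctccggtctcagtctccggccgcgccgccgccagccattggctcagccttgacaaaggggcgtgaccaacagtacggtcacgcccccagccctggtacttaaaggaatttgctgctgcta
The Epcam promoter holds 2 E-boxes, which begin 187 and 19 bases before the start, and the Snai1 promoter holds 1, at 126 bases. The motif was searched on both strands, and it is in 6640 of 32851 promoter windows of 300 bases (20.2%). It is not in the window of Vim or in the 4 windows of Zeb2, and a match is a description of the letters only.

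Total counts per library ran from 25584647 to 33831684 in EpiSC and from 23772045 to 67722013 in DE. Levels are given as CPM, counts relative to the size of the library after scaling by the trimmed mean of M values (TMM). The cell types carried their markers: all 10 definitive endoderm markers rose in DE, and 8 of 10 epiblast and pluripotency markers fell. The other 2, Fgf5 and Otx2, rose, and the summed level of that list had a median of 2206 CPM in EpiSC and 2300.0 CPM in DE. One library stands apart. It is DE of NOD/ShiLtJ AC576, which had the lowest summed level of the 10 endoderm markers (1799 CPM, against a median of 10130 CPM over the 17 DE libraries) and the highest Pou5f1, a pluripotency gene (87.9 CPM against a median of 2.65 CPM). Feeder RNA was followed with 8 fibroblast collagens. Their summed level was 118.5 to 4244 CPM in EpiSC (median 1921 CPM) and 98.8 to 1713 CPM in DE (median 276 CPM), and all 8 fell in DE. Of 15 other fibroblast markers 12 fell and 2 rose (Pdgfra and Fbln1). Their summed level was 114.5 to 1761 CPM in EpiSC and 168 to 857 CPM in DE, and Fap and S100a4 had a DE median below 0.1 CPM. Thy1, a fibroblast surface marker, was 9.004 to 125 CPM in EpiSC and 0 to 2.34 CPM in DE. In these bulk samples, fewer cells of a type and less RNA per cell cannot be told apart.

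The first comparison asks how the 9 genes differ between DE and the EpiSC it was made from. Both cell types were rich in epithelial adhesion transcripts, and the largest differences were in the mesenchymal group. Cdh2 and Epcam rose modestly in DE, and Snai2, Zeb1, Zeb2, Vim and Fn1 fell by between 1.46 and 3.35 on the log2 scale. Cdh1 and Snai1 did not pass the threshold. All 9 genes overlapped between the cell types, whereas among all genes the DE libraries lay wholly above the EpiSC libraries for 8.91% and wholly below for 10%. Over all genes tested 77.2% passed it (37.3% higher and 39.9% lower), so a count of 7 of 9 is near the background. The median log2 fold was -1.46 for the 9 genes and -0.06 for all 20907 genes tested. Folds and adjusted p-values are from edgeR's quasi-likelihood test with strain as a term and Benjamini-Hochberg adjustment over all genes, with a threshold of 0.05.

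**Figure D1:**
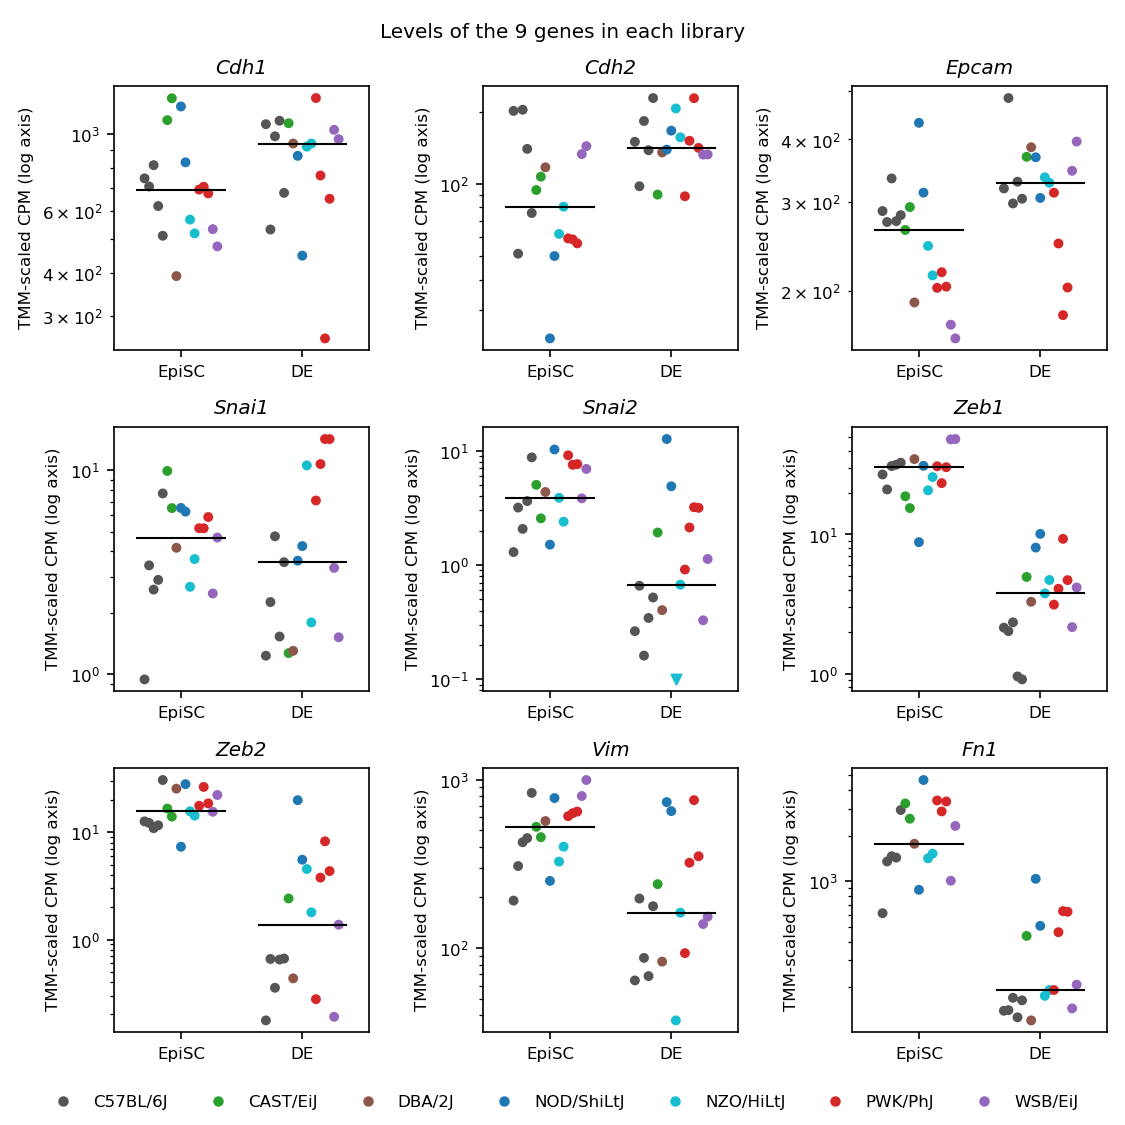
TMM-scaled CPM of each gene in every library (log axes, 17 EpiSC and 17 DE libraries per panel, coloured by strain); black lines are medians and the downward triangle is a library with 0 counts, drawn at 0.1 CPM. Zeb1, Zeb2 and Fn1 show the widest separation, while Cdh1 overlaps almost fully. Snai1 overlaps too, with 4 DE libraries above every EpiSC library.

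Cdh1 (chromosome 8, 106603351 to 106670246, plus strand) encodes E-cadherin, the main cadherin of epithelia. Its level was 391 CPM at the lowest, 693 CPM at the median and 1268 CPM at the highest in EpiSC, and 259, 940 and 1270 CPM in DE. The groups overlapped over almost their whole range, and the DE library of PWK/PhJ line AC699 was the lowest of all. The log2 fold was 0.33 ± 0.16 (SE; adjusted p = 0.0686, edgeR), with a higher value in DE in 11 of 16 lines. Blocking on the cell line moved the value to 0.38, which passed (adjusted p = 0.0221, edgeR), and it also passed without DE PWK/PhJ AC699 (0.39), DE NOD/ShiLtJ AC595 (0.41) or EpiSC NOD/ShiLtJ AC576 (0.38).

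Epcam (chromosome 17, 87635979 to 87651129, plus strand) encodes a cell adhesion molecule of epithelia and pluripotent cells; it is the gene with 2 E-boxes in the promoter shown above. It was measured at 161, 264 and 432 CPM (lowest, median, highest) in EpiSC and at 179, 328 and 484 CPM in DE. The 2 WSB/EiJ lines were lowest in EpiSC and 3 of the 4 PWK/PhJ lines lowest in DE, and the cell types overlapped. It rose in DE by 0.39 ± 0.10 on the log2 scale (SE; adjusted p = 0.000692, edgeR), in 12 of 16 lines. In C57BL/6J libraries alone the value was 0.27 and did not pass (adjusted p = 0.121, edgeR).

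Cdh2 (chromosome 18, 16588877 to 16809246, minus strand) encodes N-cadherin, which replaces E-cadherin in many mesenchymal and neural cells. Its levels were 22.8, 80.5 and 204 CPM in EpiSC and 89.0, 141 and 228 CPM in DE. Low values were an EpiSC feature: no DE library lay below the EpiSC median, and 3 DE libraries lay above the highest EpiSC library. Cdh2 rose by 0.75 ± 0.21 on the log2 scale (SE; adjusted p = 0.0022, edgeR), in 10 of 16 lines. In the C57BL/6J libraries alone the value was 0.27, which did not pass (adjusted p = 0.533, edgeR).

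Among the 4 transcription factors, both Zeb genes and Snai2 fell in DE. Zeb1 (chromosome 18, 5591860 to 5775467, plus strand), a zinc-finger repressor of Cdh1, was at 8.81, 30.4 and 48.5 CPM in EpiSC and at 0.911, 3.78 and 10.1 CPM in DE. Of the 17 DE libraries 15 lay below the lowest EpiSC library; the other two were DE PWK/PhJ AC699 and DE NOD/ShiLtJ AC595. Zeb1 fell by 2.95 ± 0.27 on the log2 scale (SE; adjusted p = 2.07e-11, edgeR), with a lower value in 16 of 16 lines.

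Zeb2 (chromosome 2, 44983632 to 45117395, minus strand), the second Zeb repressor, was at 7.35, 15.7 and 30.8 CPM in EpiSC and at 0.176, 1.38 and 20.0 CPM in DE. The highest DE library was NOD/ShiLtJ AC576, well inside the EpiSC range, and 15 of 17 DE libraries lay below every EpiSC library. Zeb2 fell by 3.35 ± 0.48 on the log2 scale (SE; adjusted p = 2.44e-07, edgeR) and was lower in DE in 15 of 16 lines. The DE values rest on few reads, with a median of 46 counts and a lowest value of 6 counts.

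Snai2 (chromosome 16, 14705852 to 14709385, plus strand), which encodes the repressor Slug, was at 1.30, 3.87 and 10.3 CPM in EpiSC and at 0, 0.673 and 12.7 CPM in DE. The library at 0 was NZO/HiLtJ AC653, where a count of 0 allows a level of up to 0.0827 CPM (3 counts), and the highest was NOD/ShiLtJ AC576. Snai2 fell by 2.30 ± 0.43 on the log2 scale (SE; adjusted p = 1.58e-05, edgeR), with a lower value in 15 of 16 lines. Its median count in DE was 23, so single DE values are imprecise; such intervals cover counting error only.

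Snai1 (chromosome 2, 167538195 to 167542814, plus strand) encodes Snail, a repressor of Cdh1 at gastrulation. It was at 0.944, 4.68 and 9.92 CPM in EpiSC and at 1.23, 3.54 and 14.2 CPM in DE. It went down in 9 lines and up in 7, and 4 DE libraries lay above the highest EpiSC library. The log2 fold was -0.20 ± 0.31 (SE; adjusted p = 0.572, edgeR), so no difference between the cell types was resolved against the spread between lines.

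The intermediate filament gene Vim (chromosome 2, 13573927 to 13582826, plus strand) was at 192, 525 and 995 CPM in EpiSC and at 37.3, 162 and 756 CPM in DE. The high DE libraries were PWK/PhJ AC699 and both NOD/ShiLtJ lines, and 10 DE libraries lay below every EpiSC library. Vim fell by 1.46 ± 0.30 on the log2 scale (SE; adjusted p = 8.1e-05, edgeR), with a lower value in 15 of 16 lines.

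Fn1 (chromosome 1, 71585520 to 71653200, minus strand), which encodes the matrix glycoprotein fibronectin, was at 615, 1768 and 4660 CPM in EpiSC and at 120.6, 191 and 1038 CPM in DE. Every DE library lay below the EpiSC median and 14 of 17 below every EpiSC library. The log2 fold was -3.00 ± 0.23 (SE; adjusted p = 5.1e-13, edgeR). It too was lower in DE in 15 of 16 lines.

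The exception was the same line for Snai2, Zeb2, Vim and Fn1, NOD/ShiLtJ AC576. Its log2 differences (DE minus EpiSC) were 2.99 for Snai2, 1.43 for Zeb2 and 0.24 for Fn1, and its Vim was at 736 CPM in DE. Its collagen Col1a1 also went up, by 1.14. In this line the DE library had the low endoderm and high Pou5f1 values given above, and its EpiSC library had the lowest Cdh2, Zeb1 and Zeb2 of the 17. Without its DE library 7 of 9 genes passed, with log2 folds of -2.40 for Snai2, -3.50 for Zeb2, -1.50 for Vim and -3.08 for Fn1. Reads antisense to Cdh2, Zeb1, Zeb2 and Fn1 may be mixed into their counts, since annotated genes lie on the other strand there (Gm15485 at Cdh2, Gm10125 and Gm16147 at Zeb1, Zeb2os at Zeb2, Apol7d at Fn1) and the strand setting of the counting is not given in the sources used here.

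Per kilobase of exon, the genes can be ranked within a cell type. In EpiSC the median levels were 152 CPM per kb for Cdh1, 151 for Fn1, 120 for Epcam and 111 for Vim, with ranges over libraries that overlap. Cdh2 followed at 9.98 CPM per kb, then Zeb1 at 2.96, Snai1 at 2.88, Snai2 at 1.92 and Zeb2 at 0.789. In DE, Cdh1 (205 CPM per kb) and Epcam (149) led. Vim stood at 34.2, Cdh2 at 17.5 and Fn1 at 16.4 CPM per kb, again with overlapping ranges, followed by Snai1 at 2.19, Zeb1 at 0.368, Snai2 at 0.333 and Zeb2 at 0.069. Fn1 thus moved from the level of Cdh1 in EpiSC to that of Cdh2 in DE.

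The difference between cell types was refitted with the mean log2 level of the 8 collagens as a further term, as a guide to feeder RNA. That term moves with cell type, since all 8 collagens fell. At like summed collagen levels Thy1 differed between cell types. DE NOD/ShiLtJ AC576 had 1713 CPM of collagens and 1.25 CPM of Thy1, and EpiSC C57BL/6J line 44 had 1598 and 50.0 CPM. As 1 collagen term was fitted over all libraries, it may not follow feeder RNA alike in EpiSC and DE. Zeb1 (-2.28), Zeb2 (-2.18) and Fn1 (-1.65) still passed, all lower in DE. Snai2 (0.03; adjusted p = 0.962, edgeR) and Vim (0.15; adjusted p = 0.713, edgeR) changed sign and did not pass. Cdh2 (0.57; adjusted p = 0.187, edgeR) and Epcam (0.25; adjusted p = 0.188, edgeR) kept their sign and did not pass. For Cdh1 (-0.39) and Snai1 (0.15), which had not passed before, the sign also changed. The part of feeder RNA in the differences of Snai2 and Vim was not tested beyond this.

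**Figure D2:**
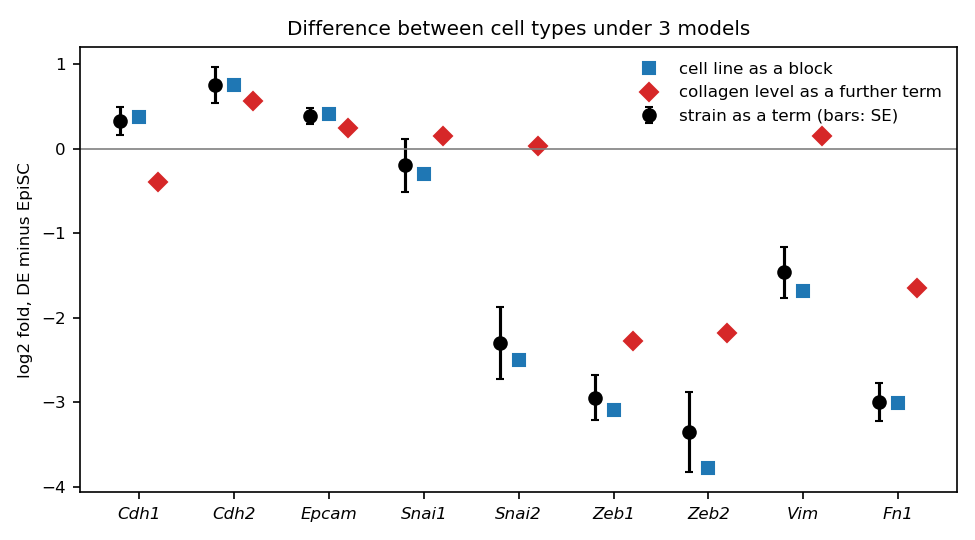
Log2 fold of each gene, DE minus EpiSC, under 3 models (circles with SE bars: strain as a term; squares: cell line as a block; diamonds: collagen level as a further term). Zeb1, Zeb2 and Fn1 lie well below 0 in all 3, and the diamonds of Snai2 and Vim lie at 0.03 and 0.15.

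A switch from E-cadherin to N-cadherin is often read from their ratio, here the log2 of Cdh1 over Cdh2 in CPM per kb. It was 3.83 ± 1.05 (SD, n = 17) in EpiSC, from 2.54 in WSB/EiJ AC635 to 6.49 in NOD/ShiLtJ AC576. In DE it was 3.27 ± 0.84 (SD, n = 17), from 1.00 in PWK/PhJ AC699 to 4.64 in PWK/PhJ AC695. Cdh1 thus exceeded Cdh2 per kilobase in all 34 libraries. Over the 16 lines with both libraries the ratio changed by -0.39 ± 1.33 (SD), falling in 8 lines and rising in 8, and no difference was resolved (exact two-sided sign-flip permutation test, p = 0.262). Without the NOD/ShiLtJ lines the mean change was -0.04.

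**Figure D3:**
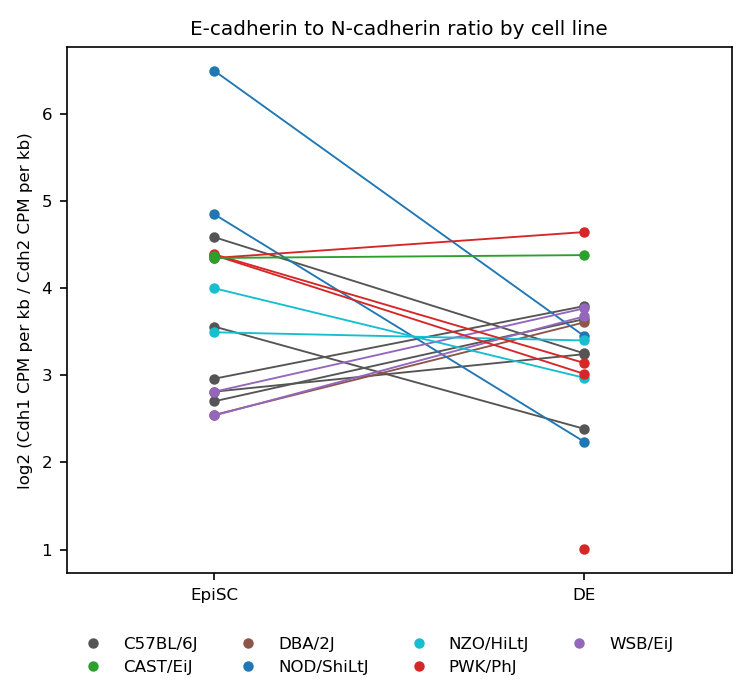
Log2 ratio of Cdh1 to Cdh2 (both CPM per kb) in EpiSC and DE, each point a library coloured by strain and each line joining the libraries of 1 cell line. The 2 NOD/ShiLtJ lines start at 4.85 and 6.49 and end at 2.24 and 3.45.

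The ratio differed among strains in EpiSC (permutation test of F over 5 strains and 14 libraries, F = 6.62, p = 0.00363, adjusted p = 0.00726 over 2 tests). Its mean there was 5.67 ± 1.16 in NOD/ShiLtJ (SD, n = 2), 4.37 ± 0.02 in PWK/PhJ (SD, n = 3), 3.75 ± 0.36 in NZO/HiLtJ (SD, n = 2), 3.32 ± 0.78 in C57BL/6J (SD, n = 5) and 2.68 ± 0.19 in WSB/EiJ (SD, n = 2). In DE no difference among the strains was resolved (F = 0.303, permutation p = 0.852). The spread over DE lines was wide within PWK/PhJ, whose 4 lines ran from 1.00 to 4.64.

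The second comparison asks whether genetic background changed these genes in EpiSC. The adhesion genes differed among strains there: Cdh1, Cdh2 and Epcam passed the F test over the 5 strains with at least 2 lines in both cell types, and none of the transcription factors, Vim or Fn1 did. A count of 3 of 9 is near the 40% of all 17868 genes that passed. Each library of a cell type is a separate line, so these p-values measure the spread between lines. Fibroblast collagens varied within a strain: their summed level was 118.5 CPM in C57BL/6J line 1 and 3340 CPM in line 5-1. Of the 8 collagens 0 passed the strain F test in EpiSC. Strain tests in EpiSC with a collagen term are not given here. Reads of every strain were aligned to the C57BL/6J genome (mm10), so differences in alignment and in expression cannot be told apart.

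Epcam had the highest F of the 9 genes in EpiSC, 23.1 (adjusted p = 0.000123, edgeR). The C57BL/6J lines were at 274, 275, 283, 288 and 335 CPM, the WSB/EiJ lines at 161 and 171 CPM, the PWK/PhJ lines at 203, 204 and 218 CPM, and the NOD/ShiLtJ lines at 314 and 432 CPM. No WSB/EiJ or PWK/PhJ line reached the lowest C57BL/6J line. Against C57BL/6J the log2 fold was -0.79 ± 0.12 in WSB/EiJ (adjusted p = 0.00102, edgeR) and -0.45 ± 0.10 in PWK/PhJ (adjusted p = 0.00504, edgeR; both SE). That of NOD/ShiLtJ was 0.38 ± 0.11 (SE; adjusted p = 0.0445, edgeR), a call lost in 14 of 17 fits that left out 1 library, with a value of 0.11 without EpiSC NOD/ShiLtJ AC576.

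Cdh1 had F = 8.97 (adjusted p = 0.00541, edgeR). The 2 CAST/EiJ lines, at 1097 and 1268 CPM, were above all 5 C57BL/6J lines, at 511, 622, 708, 746.5 and 815 CPM, and the NOD/ShiLtJ lines, at 830 and 1201 CPM, were above them too. Log2 folds against C57BL/6J were 0.81 ± 0.16 for CAST/EiJ (SE; adjusted p = 0.00155, edgeR) and 0.60 ± 0.16 for NOD/ShiLtJ (SE; adjusted p = 0.0251, edgeR). The latter was 0.29 without EpiSC NOD/ShiLtJ AC576 and then did not pass (adjusted p = 0.325, edgeR), nor did it without EpiSC C57BL/6J line 44.

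Cdh2 had F = 5.34 (adjusted p = 0.032, edgeR), a call lost in 8 of 17 fits that left out 1 library. The C57BL/6J lines themselves ranged from 51.3 to 204 CPM, and the NOD/ShiLtJ lines, at 22.8 and 50.2 CPM, lay below all 5. The log2 fold of NOD/ShiLtJ was -1.86 ± 0.51 (SE; adjusted p = 0.034, edgeR). It was -1.42 without EpiSC NOD/ShiLtJ AC576, which did not pass (adjusted p = 0.204, edgeR), and was lost too without EpiSC C57BL/6J line 4 or 44. The PWK/PhJ lines were at 56.6, 58.8 and 59.4 CPM.

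Zeb1 did not pass among the strains in EpiSC, but did so without either NOD/ShiLtJ line (adjusted p = 0.00878 without AC576 and 0.000332 without AC595, edgeR). Those lines were far apart, at 8.81 and 31.1 CPM, while the WSB/EiJ lines were at 48.2 and 48.5 CPM and the C57BL/6J lines at 21.1 to 32.8 CPM.

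Counts of the 9 genes called against C57BL/6J in EpiSC were 3 for NOD/ShiLtJ, 2 higher and 1 lower (12.9% of all genes, 5.98% higher and 6.94% lower). There was 1 higher for CAST/EiJ (31.6%, 14.5% higher), 1 lower each for PWK/PhJ (29.8%, 16.1% lower) and WSB/EiJ (7.41%, 3.96% lower), and 0 for NZO/HiLtJ (5.52%) by edgeR, where 1 gene, Epcam, had an unadjusted p under 0.05 (log2 fold -0.34).

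In DE it was the other genes that passed. Snai1, Snai2, Zeb1, Zeb2, Vim and Fn1 passed the strain F test and Cdh1, Cdh2 and Epcam did not. The count of 6 of 9 stands against 22.3% of the 19290 genes tested. The calls came from NOD/ShiLtJ and PWK/PhJ, which were higher than C57BL/6J in every called contrast: 5 genes for NOD/ShiLtJ (11.4% of all genes, 7.98% higher) and 6 for PWK/PhJ (17.1%, 9.66% higher). For NZO/HiLtJ (1.41%) and WSB/EiJ (2.28%) edgeR called 0 of the 9 genes, with an unadjusted p under 0.05 for 2 in NZO/HiLtJ (Zeb1 and Zeb2, log2 folds 1.38 and 2.70) and 0 in WSB/EiJ.

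**Figure D4:**
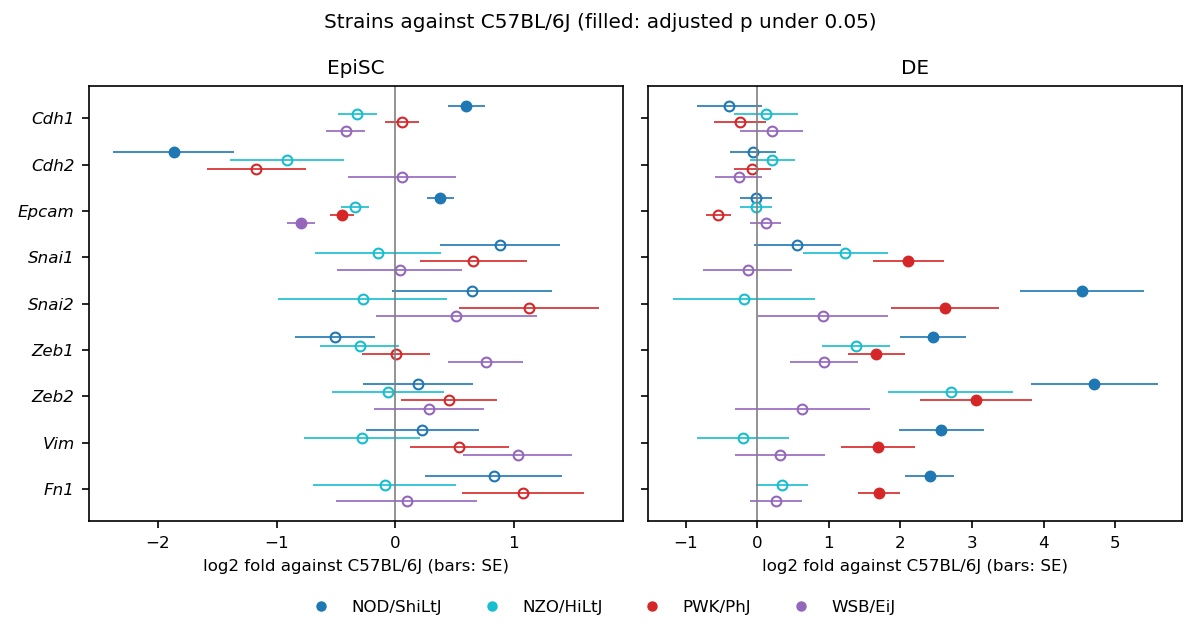
Log2 fold of 4 strains against C57BL/6J in EpiSC (left) and DE (right) for each gene, with SE bars; filled points have an adjusted p under 0.05 (edgeR). In DE the filled points all lie between 1.67 and 4.71 and belong to NOD/ShiLtJ and PWK/PhJ, and CAST/EiJ, with 1 DE line, is not drawn.

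Fn1 showed this most clearly (F = 17.3, adjusted p = 0.000541, edgeR). The C57BL/6J lines were at 126, 140, 141, 164 and 170 CPM in DE, the PWK/PhJ lines at 191.5, 461, 629 and 635 CPM, and the NOD/ShiLtJ lines at 508 and 1038 CPM. Neither strain overlapped C57BL/6J. CAST/EiJ (436 CPM), the NZO/HiLtJ lines (175 and 191 CPM) and WSB/EiJ AC635 (208 CPM) were also above C57BL/6J. WSB/EiJ AC627 (145 CPM) and DBA/2J (121 CPM) were not. Log2 folds were 2.41 ± 0.34 for NOD/ShiLtJ (SE; adjusted p = 0.000622, edgeR) and 1.70 ± 0.30 for PWK/PhJ (SE; adjusted p = 0.001, edgeR).

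Zeb1 was at 0.911, 0.957, 2.02, 2.14 and 2.34 CPM in the C57BL/6J lines, at 3.14, 4.08, 4.70 and 9.30 CPM in PWK/PhJ and at 8.05 and 10.1 CPM in NOD/ShiLtJ. All 6 lines of these strains were above every C57BL/6J line. So were the NZO/HiLtJ lines (3.78 and 4.71 CPM), CAST/EiJ (4.96 CPM), DBA/2J (3.29 CPM) and WSB/EiJ AC635 (4.17 CPM). WSB/EiJ AC627, at 2.16 CPM, was inside the C57BL/6J range. The log2 fold was 2.45 ± 0.46 for NOD/ShiLtJ (SE; adjusted p = 0.00361, edgeR) and 1.67 ± 0.40 for PWK/PhJ (SE; adjusted p = 0.00922, edgeR). Zeb1 and Fn1 kept their strain calls in each of the 17 fits that left out 1 library.

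Zeb2 was at 0.176 to 0.665 CPM in the 5 C57BL/6J lines, at 5.55 and 19.96 CPM in NOD/ShiLtJ and at 0.278, 3.78, 4.35 and 8.24 CPM in PWK/PhJ. PWK/PhJ AC695 was thus inside the C57BL/6J range, and the other 5 lines were above it. The NZO/HiLtJ lines (1.795 and 4.55 CPM), CAST/EiJ (2.42 CPM) and WSB/EiJ AC635 (1.38 CPM) were also above it. WSB/EiJ AC627 (0.19 CPM) and DBA/2J (0.434 CPM) were inside it. The log2 fold was 4.71 ± 0.89 for NOD/ShiLtJ (SE; adjusted p = 0.00372, edgeR) and 3.06 ± 0.78 for PWK/PhJ (SE; adjusted p = 0.0135, edgeR), from C57BL/6J libraries of 6 to 46 counts.

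Snai2 in DE was 0.161 to 0.659 CPM in C57BL/6J (9 to 36 counts), 4.89 and 12.7 CPM in NOD/ShiLtJ and 0.913, 2.13, 3.17 and 3.20 CPM in PWK/PhJ. Both strains were above C57BL/6J, with log2 folds of 4.54 ± 0.87 (SE; adjusted p = 0.00402, edgeR) and 2.62 ± 0.76 (SE; adjusted p = 0.0275, edgeR). CAST/EiJ (1.925 CPM), WSB/EiJ AC635 (1.13 CPM) and NZO/HiLtJ AC671 (0.673 CPM) were also above C57BL/6J. WSB/EiJ AC627 (0.329 CPM), DBA/2J (0.403 CPM) and NZO/HiLtJ AC653 (0 CPM) were not. Vim was 64.4 to 197 CPM in C57BL/6J, 650 and 736 CPM in NOD/ShiLtJ and 93.4, 321, 351 and 756 CPM in PWK/PhJ, with log2 folds of 2.57 ± 0.60 (SE; adjusted p = 0.0116, edgeR) and 1.69 ± 0.51 (SE; adjusted p = 0.0353, edgeR). Without DE NOD/ShiLtJ AC576, which leaves 1 NOD/ShiLtJ line, the strain calls of Snai2, Zeb2 and Vim did not hold. The NOD/ShiLtJ log2 folds were then 3.65, 3.46 and 2.45, from that 1 line. The PWK/PhJ contrasts of Snai2 and Vim were each lost in 6 of 17 fits that left out 1 library; for Vim without DE PWK/PhJ AC699 the value was 1.13.

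Snai1 was called against C57BL/6J in PWK/PhJ and in no other strain tested. The 4 PWK/PhJ lines were at 7.11, 10.7, 14.2 and 14.2 CPM, all above the C57BL/6J lines at 1.23, 1.53, 2.26, 3.54 and 4.74 CPM. The NOD/ShiLtJ lines at 3.602 and 4.249 CPM lay inside the C57BL/6J range. NZO/HiLtJ AC653, at 10.6 CPM, lay inside the PWK/PhJ range, and NZO/HiLtJ AC671 was at 1.795 CPM. The NZO/HiLtJ contrast, 1.23 ± 0.59 (SE, adjusted p = 0.452, edgeR), was not resolved. The log2 fold of PWK/PhJ was 2.11 ± 0.50 (SE; adjusted p = 0.00879, edgeR), and it passed in each of the 17 fits that left out 1 library. The F test of Snai1 was lost in 3 of them, without PWK/PhJ AC698, AC699 or AC705.

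Fibroblast collagens moved with these strain differences. Their summed level in DE was 1385 and 1713 CPM in NOD/ShiLtJ and 179, 454, 500.2 and 533 CPM in PWK/PhJ, against 98.8 to 346 CPM in C57BL/6J, and 7 of the 8 collagens passed the strain F test in DE. With the collagen level as a further term 1 of the 9 genes passed, Snai1. The share of all genes passing with that term is not given here. A drop over all genes and one particular to these 9 thus cannot be told apart. With the mean of the 15 fibroblast markers, a term chosen after the data were seen, edgeR called 0 of 9 (2 at an unadjusted p under 0.05). Calls over all genes fell with that term as well, and their number is given in the last paragraph. A loss particular to these 9 genes was not tested. The summed fibroblast markers were at 585 and 857 CPM in NOD/ShiLtJ and at 282 to 457 CPM in PWK/PhJ, against 210.0 to 279 CPM in C57BL/6J. Thy1 was at 1.25 and 2.34 CPM in NOD/ShiLtJ, the 2 highest DE libraries, and at 0 to 0.902 CPM in PWK/PhJ, against 0 to 0.33 CPM in C57BL/6J. Endoderm markers moved the other way in some of these lines: their summed level was lowest in both NOD/ShiLtJ libraries (1799 and 4568 CPM) and next lowest in PWK/PhJ AC699 (6229 CPM), against 7818 to 15720 CPM in C57BL/6J. The other 3 PWK/PhJ lines, at 9226 to 12060 CPM, lay inside the C57BL/6J range. The part of endoderm marker level in the strain differences was not tested. The part of fibroblast RNA in the strain differences was otherwise not tested.

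Whether a strain effect differed between the cell types was tested with the interaction of strain and cell type. It passed for Epcam (F = 5.14, adjusted p = 0.0397, edgeR), Zeb1 (F = 8.25, adjusted p = 0.00636, edgeR) and Zeb2 (F = 5.67, adjusted p = 0.0285, edgeR), 3 of 9 genes against 10.7% of all genes. Of 29 fits that left out 1 library, the Epcam call was lost in 8, the Zeb2 call in 4 and the Zeb1 call in 0. For the other 6 genes a difference between the strain effects in EpiSC and in DE was not resolved, although the F test passed in only 1 of the cell types. Under a block on the cell line Zeb1 alone passed. Of the strain contrasts, the difference between cell types was called for 3 genes in NOD/ShiLtJ (6.96% of all genes, 4.54% higher) and 1 in PWK/PhJ (6.67%, 3.97% higher), all higher in DE. For Zeb1 the effect of NOD/ShiLtJ against C57BL/6J was higher in DE than in EpiSC by 2.96 ± 0.60 on the log2 scale (SE; adjusted p = 0.00389, edgeR) and that of PWK/PhJ by 1.68 ± 0.50 (SE; adjusted p = 0.0392, edgeR). The NOD/ShiLtJ difference was also called for Zeb2 (4.49 ± 1.11, SE) and Snai2 (3.87 ± 1.19, SE), each with an adjusted p under 0.05 (edgeR), but without EpiSC NOD/ShiLtJ AC576 all 3 were lost, at 2.32 for Zeb1, 3.83 for Zeb2 and 3.07 for Snai2. Without DE NOD/ShiLtJ AC576 Zeb1 kept its call (3.01; adjusted p = 0.0198, edgeR), and Zeb2 (3.19) and Snai2 (2.93) did not. The Snai2 call was lost in 20 of 29 fits that left out 1 library, libraries of other strains included. The PWK/PhJ value of Zeb1 was lost in 16 of 29 fits that left out 1 library.

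Each gene was then set against the mean log2 level of the 8 collagens over the 17 libraries of a cell type, a total of 18 relations with p-values from 100000 permutations. In EpiSC, where feeders were present, 5 genes rose with the collagens: Fn1 (Pearson's r = 0.867, Spearman's rho = 0.934, both adjusted permutation p = 4.5e-05), Snai2 (r = 0.833, rho = 0.917, both adjusted permutation p = 4.5e-05), Snai1 (r = 0.828, rho = 0.674, adjusted permutation p = 0.00063 and 0.00698), Vim (r = 0.737, rho = 0.696, adjusted permutation p = 0.00144 and 0.00562) and Zeb2 (r = 0.574, rho = 0.784, adjusted permutation p = 0.0265 and 0.00111). Without C57BL/6J lines 1 and 4, the libraries farthest from the median, r was 0.973 for Fn1, 0.885 for Snai2, 0.732 for Zeb2, 0.64 for Vim and 0.577 for Snai1. After subtraction of strain means r was 0.851, 0.848, 0.557, 0.842 and 0.869 in the same order. The unadjusted p of Fn1 and Snai2 here, and of Snai2 and Vim in DE (1e-05), is the smallest that the permutations can give.

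Zeb1, Cdh1, Cdh2 and Epcam showed no resolved relation with the collagens in EpiSC. For Zeb1 r was 0.123 and rho 0.199 (adjusted permutation p = 0.683 and 0.532), although Zeb1 and Zeb2 both fell in DE. Cdh1 had r = -0.1 and rho = -0.1 (adjusted permutation p = 0.698 and 0.742), but -0.738 after subtraction of strain means. For Cdh2 r was -0.435 and rho -0.431 (adjusted permutation p = 0.121 and 0.138), with r = 0.06 without the 2 farthest libraries. Epcam had r = -0.312 and rho = -0.265 (adjusted permutation p = 0.312 and 0.419).

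In DE, where the cells had left the feeders and been sorted, Snai2 (r = 0.908, rho = 0.912), Vim (r = 0.887, rho = 0.885), Fn1 (r = 0.832, rho = 0.819), Zeb1 (r = 0.736, rho = 0.738) and Zeb2 (r = 0.735, rho = 0.662) rose with the collagens. Their adjusted permutation p-values were 4.5e-05, 4.5e-05, 7.2e-05, 0.00157 and 0.0018 for r and 4.5e-05, 4.5e-05, 0.00036, 0.00262 and 0.00891 for rho. Without the NOD/ShiLtJ lines, the 2 farthest libraries, r was 0.857, 0.823, 0.755, 0.604 and 0.601 in the same order. After subtraction of strain means it was 0.759, 0.736, 0.414, 0.373 and 0.502. Snai1 had r = 0.215 and rho = 0.233 in DE (adjusted permutation p = 0.519 and 0.473), unlike its value in EpiSC; the difference between the cell types was not tested. Cdh1 (r = -0.448), Cdh2 (r = -0.204) and Epcam (r = -0.113) did not pass, with adjusted permutation p-values of 0.114, 0.519 and 0.698. Their rho was -0.409, -0.152 and -0.0123 (adjusted permutation p = 0.157, 0.629 and 0.966).

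**Figure D5:**
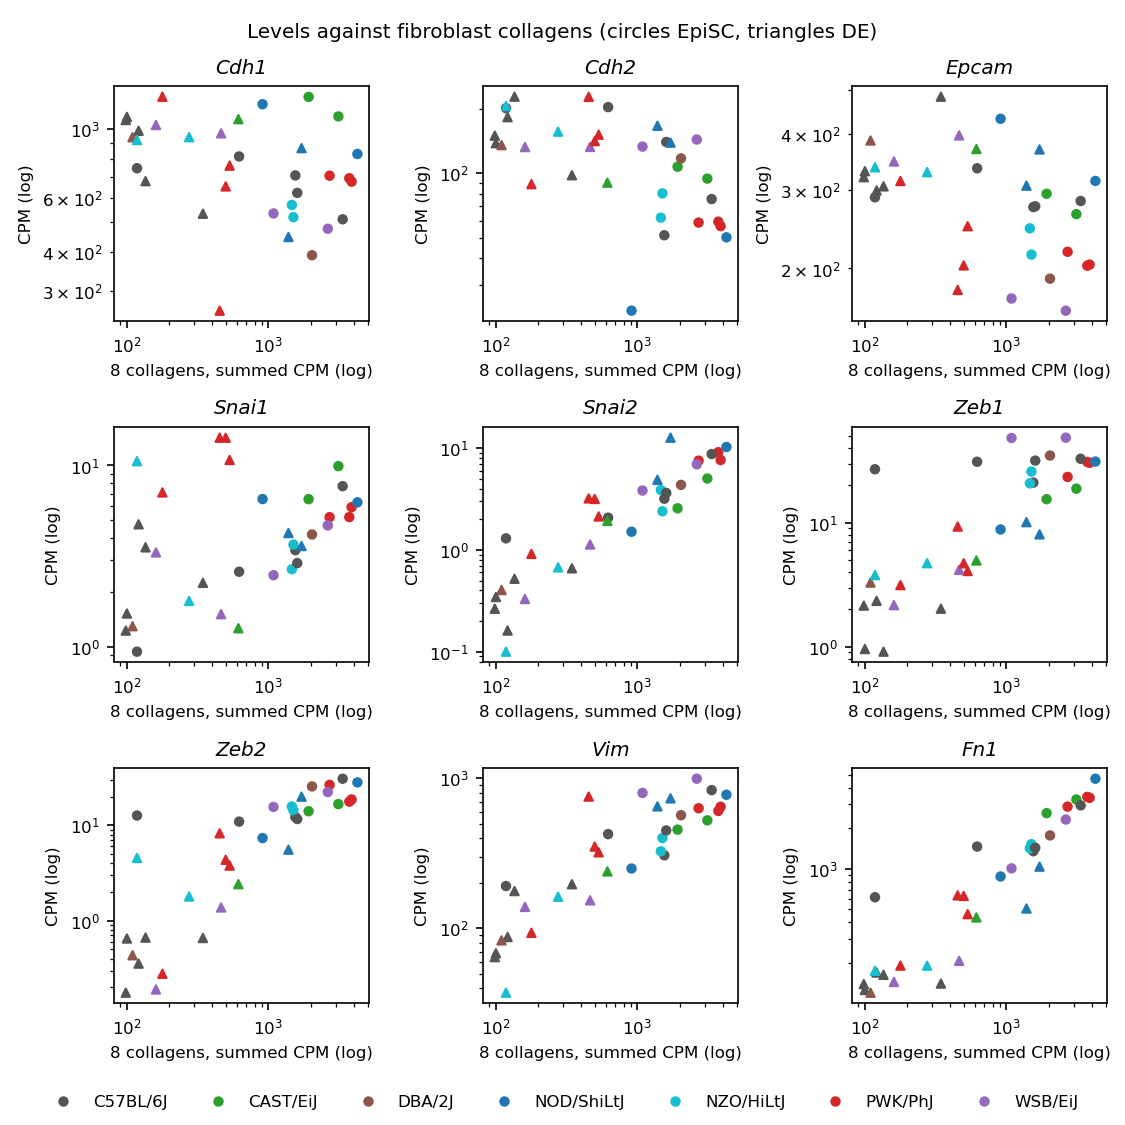
CPM of each gene against the summed CPM of the 8 collagens (both log axes), circles for EpiSC and triangles for DE, coloured by strain; a Snai2 value of 0 is drawn at 0.1 CPM. Snai2, Vim and Fn1 are higher where the collagens are higher within both cell types, and 15 of 17 DE libraries lie below every EpiSC library for Zeb1.

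Genes of the same pathways were read from lists. Of 10 other cadherins tested 1 rose and 6 fell in DE (median log2 fold -1.58), with the largest falls in Cdh10 (-3.68), Cdh8 (-2.60) and Cdh4 (-2.51). Of 10 catenins and junction linkers 4 rose and 6 fell (median -0.53). The neural catenins Ctnna2 (-3.35) and Ctnnd2 (-3.09) and the tight junction scaffold Tjp1 (-1.89) fell most. Of 10 other EMT transcription factors 1 rose and 6 fell (median -0.97). The largest falls were in Prrx1 (-4.11) and Twist2 (-2.93), both also on the fibroblast marker list, and Klf8 (-1.57). The summed level of this list was nevertheless higher in DE, at 419 to 571 CPM (median 512 CPM), against 269 to 386 CPM in EpiSC (median 348 CPM). The 1 gene of the list that rose was Tcf3 (1.23), so the higher sum does not describe the list as a group. Of 10 genes listed as repressors of EMT 5 rose and 2 fell (median 0.91), with the largest rises in Ovol2 (5.16), Grhl3 (3.85) and Elf3 (2.81), transcription factors of epithelia. Of 12 matrix, adhesion and protease genes of mesenchyme 2 rose and 7 fell (median -1.40), with falls in Tnc (-4.24) and Cd44 (-3.17) among them. These counts stand beside the 77.2% of all genes that passed and the median of -0.06 given above. By strain in DE, where 22.3% of all genes passed the F test, 10 of 12 matrix genes passed, as did 4 of 10 other cadherins, 1 of 10 catenins and linkers, 3 of 10 EMT transcription factors and 4 of 10 EMT repressors. In EpiSC, where 40% of all genes passed, the counts in the same order were 2 of 12, 4 of 8, 2 of 10, 4 of 10 and 5 of 10. For the difference between cell types, which 10.7% of all genes passed, they were 1 of 12, 2 of 10, 1 of 10, 2 of 10 and 6 of 10.

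Within strain and cell type, the genes whose levels moved most like each member were named by Pearson's r over 31 libraries, after the mean of each strain and cell type was subtracted, as a description across shared libraries. Vim was most like Cd44 (0.955), Lgals1 (0.951) and Gsto1 (0.928), and Fn1 most like the basement membrane gene Nid1 (0.944), Bmp1 (0.919) and Sdc2 (0.914). Snai2 was most like Fkbp10 (0.912), Postn (0.883) and Bgn (0.875), which encode a collagen chaperone and matrix proteins. Cdh1 was most like Clstn1 (0.927), Wwc1 (0.91) and Sbk1 (0.897), and Epcam most like Spint2 (0.9), a serine protease inhibitor of epithelia, Csrp2 (0.863) and Phyh (0.851). The values for Cdh2 were 0.867 with Zadh2, 0.844 with Il17rd and 0.793 with Adam19. For Snai1 they were 0.831 with Ldb1, 0.797 with Isyna1 and 0.793 with Dab2ip. Zeb2 was most like Tnfrsf22 (0.867), Steap2 (0.832) and Pcdh18 (0.788), and Zeb1 had the lowest values, with Myl9 (0.757), Ier3 (0.733) and Eid1 (0.724).

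Among the 9 genes themselves, the same measure was highest between Snai2 and Vim (0.817), Snai2 and Fn1 (0.77) and Vim and Fn1 (0.726). Cdh1 was negative with every other member except Epcam (0.438), and most so with Vim (-0.745), Zeb2 (-0.583) and Zeb1 (-0.543). Cdh1 and Cdh2 gave -0.249, and Snai1 and Snai2 gave 0.04, although both encode Snail family repressors. Zeb1 and Zeb2 gave 0.405.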

How the data were processed

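The deposited counts per gene were used as the authors gave them. The tools the authors list, per the submitters' processing notes, are STAR 2.4, HTSeq 0.6.1 and DESeq2, with the build mm10. Neither the annotation release nor the strand setting is given in the sources used here. The members and gene lists were chosen with earlier results of these data known.

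Genes reaching 10 counts in 3 or more libraries were tested with edgeR 4.0.16 (R 4.3.3): TMM scaling, quasi-likelihood F tests, Benjamini-Hochberg adjustment over all genes tested (20907 for the cell types, 17868 within EpiSC and 19290 within DE) and a threshold of 0.05. The main model of cell type has strain as a term. Strain tests cover C57BL/6J, PWK/PhJ, NOD/ShiLtJ, NZO/HiLtJ and WSB/EiJ (contrasts against C57BL/6J also CAST/EiJ in EpiSC), with all 17 libraries of a cell type in the fit. Correlations and the cadherin ratio used log2 values with a pseudocount of 0.1 and permutation tests in Python 3.11.15 (scipy 1.17.1). All 9 members are named; other genes are the called list members with the largest folds, at most 3 a list (1 that the rule selects is not reported here), and the 3 genes most like each member.

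EpiSC and DE libraries of 1 cell line are paired by origin. Their deviations from group means correlated by 0.0014 to 0.147 (median 0.0357) over 14 lines, above 0.1 in 6. No replicates differed by as little as sampling noise (lowest chi-square per degree of freedom 6.02). The test was also run on simulated counts, whose result is not given here. They had 1 spread for all genes and independent libraries. They thus held no outlying line such as DE NOD/ShiLtJ AC576. Alternatives were another scaling, no filter, DESeq2 1.42.0, the cell line as a block, collagen terms, and leaving out libraries or NOD/ShiLtJ. The 129S1/SvImJ strain was not analysed here.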

Additional observations from a re-analysis of the deposited data

Results flagged for a closer look

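Each gene was checked in each group of 4 or more lines (EpiSC C57BL/6J, DE C57BL/6J and DE PWK/PhJ), 27 checks in all. In 3 of them a line lay far from the others, where chance gives about 1 in 20 checks. The genes share libraries, so the checks are not independent. Epcam was at 483.5 CPM in DE of C57BL/6J line 2, with the other lines between 298.5 and 329.7 CPM. In EpiSC, Epcam was at 334.7 CPM in C57BL/6J line 4, with the others between 274.2 and 288.3 CPM. Zeb2 was at 30.78 CPM in EpiSC of C57BL/6J line 5-1, with the others between 10.93 and 12.66 CPM.

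The strain effect differed between EpiSC and DE for Epcam (F = 5.141), Zeb1 (F = 8.253) and Zeb2 (F = 5.67). Against C57BL/6J, the effect of NOD/ShiLtJ was higher in DE than in EpiSC by 3.871 for Snai2, 2.96 for Zeb1 and 4.493 for Zeb2 on the log2 scale. That of PWK/PhJ was higher by 1.684 for Zeb1. The F test of Snai2 did not pass (adjusted p = 0.159, edgeR). Without EpiSC NOD/ShiLtJ AC576 the NOD/ShiLtJ values were 3.07, 2.32 and 3.83. Of 29 fits that left out 1 library, the Snai2 call was lost in 20 and the PWK/PhJ call in 16.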

How the results depend on the processing

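Of the 9 genes, 7 passed between cell types, 3 among strains in EpiSC, 6 among strains in DE and 3 for the difference of strain effects between cell types. With the collagen term the counts were 3 between cell types and 1 among strains in DE. Snai2 (0.0297) and Vim (0.15) changed sign between cell types, and neither passed (adjusted p = 0.962 and 0.713, edgeR). Vim also changed sign in NOD/ShiLtJ DE (-0.0299). With the fibroblast marker term, added after the data were seen, 0 passed in DE by edgeR (2 at an unadjusted p under 0.05), and Vim in NOD/ShiLtJ was -0.23. Without NOD/ShiLtJ, 3 passed in DE and 1 for the difference; without PWK/PhJ AC699 as well, added after the data were seen, 1 passed in DE. With no count filter 8 passed for the difference. For these changes the cause was not tested.

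Under the replicate block on the cell line, 8 passed between cell types (Cdh1 added) and 1 (Zeb1) for the difference; the block changed no other call between cell types. In C57BL/6J alone 5 passed between cell types. DESeq2 gave 7, 4, 6 and 4 in the order above. Counts over all genes are given below for some settings only, and not for the collagen term or C57BL/6J alone. Where none is given, the count of members has no background beside it.

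Leaving out 1 library gave 7 to 8 between cell types, 2 to 4 in EpiSC, 3 to 6 in DE (3 without DE NOD/ShiLtJ AC576) and 1 to 4 for the difference (1 without EpiSC NOD/ShiLtJ AC576 or EpiSC WSB/EiJ AC635). The change in cadherin ratio ranged from -0.49 to -0.21, and its F among strains from 4.199 to 13.3 in EpiSC and 0.18 to 1.18 in DE. Over all genes, calls for the difference (2227) were 4155 with no filter, 3849 by DESeq2, 1104 with the block, 1378 without NOD/ShiLtJ and 1452 without EpiSC NOD/ShiLtJ AC576. Calls in DE (4294) were 6782 with no filter, 2504 without NOD/ShiLtJ and AC699, and 2732 with the fibroblast marker term. Depth limits Snai2 and Zeb2 in DE, with medians of 23 and 46 counts.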
